A study of Zea mays with 68 samples.

Results

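The genes described here were high in 3 vegetative tissues of maize inbred B73, the line behind the reference genome, and low in spikelets of the ear. They are 200 of 109715 gene rows of an RNA-seq table, chosen by their values in these same libraries. For each gene, the mean of log2(FPKM + 1) was taken in each tissue, FPKM being fragments per kilobase of transcript scaled to mapped fragments. Genes whose 2 internode means lay less than about 0.59 apart (1.5-fold) were kept. The score of a gene was the lowest of its 3 vegetative means minus its spikelet mean, and the 200 highest scores made the set.

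All libraries came from polyA RNA of B73 tissues, and the labels give no treatment and no plant age. The vegetative meristem was sampled with the tissue around it (2 libraries). Stem internodes 6-7 and 7-8 had 3 libraries each, as did mature female spikelets, which carry the flowers of the ear. The series spans 68 samples of 23 tissues, and only the columns of these 4 could be matched by name. For meristem and spikelets that match rests on initials in the column names, and so does every value given for them. Whether replicates are separate plants is not stated, and p-values therefore cover only library-to-library spread, which may be technical.

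Vegetative shoots grow from a meristem that sets off leaves and stem segments, and growth in stems and young leaves is guided by auxin, moved from cell to cell by PIN carriers and read by response factors that Aux/IAA proteins hold in check. At flowering the shoot tip becomes an inflorescence, and in maize the ear branches form spikelets whose floral organs are specified by MADS-box transcription factors. Young vegetative maize tissue is also known for benzoxazinoids, defence compounds made from indole by the bx enzymes. Proteins of the FT/TFL1 family and their bZIP partners time the change from vegetative to reproductive growth.

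Known tissue genes were read first. Floral MADS-box genes matched the spikelet label, with zag1, an AGAMOUS-type gene, at 0.521, 0.0280 and 0.0620 FPKM in meristem, internode 6-7 and internode 7-8 and at 71.3 FPKM in spikelets. The list of meristem genes did not set the meristem samples apart as a group. The homeobox gene kn1 averaged 138, 158 and 249.7 FPKM in meristem, internode 6-7 and internode 7-8, against 48.1 FPKM in spikelets. The related gene knox3 averaged 10.5, 26.7 and 31.4 FPKM in meristem, internode 6-7 and internode 7-8, against 43.5 FPKM in spikelets, and the receptor kinase gene td1 averaged 5.15, 2.82 and 3.34 FPKM, against 6.71 FPKM in spikelets. Of the 2 genes listed as fl1, GRMZM2G098813 averaged 12.2 FPKM in meristem, 1.08 and 1.16 in the internodes and 4.58 in spikelets, and GRMZM2G094532 was under 1 FPKM in every library. The YABBY gene yab14, from a family that patterns lateral organs, averaged 40.6 FPKM in the meristem samples and 10.6 FPKM in spikelets, and it was at or under 0.362 FPKM in every internode library. Genes of secondary walls, a mark of mature stems, were split. cesa10 averaged 47.6 FPKM in meristem, 67.3 and 63.1 in internode 6-7 and internode 7-8, and 33.9 in spikelets. cesa12 averaged 1.65, 4.65 and 3.44 FPKM in the same vegetative tissues, against 0.755 FPKM in spikelets. bk2 averaged 0.0860, 0.0884 and 0.0835 FPKM in them, against 0.706 FPKM in spikelets, and cesa11 was at or near 0 in all libraries. Depth in reads is unknown. Relative to internode 6-7 library 2, depth read from the smallest values was 0.785 and 0.660 in the meristem, 0.812 to 1.23 in the remaining internode libraries, and 0.406, 0.555 and 0.707 in spikelets.

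The 200 genes were far lower in spikelets, which is what chose them, so these levels are a description with no test. The median of their mean levels was 27.7 FPKM in meristem, 22.4 in internode 6-7, 22.7 in internode 7-8 and 1.22 FPKM in spikelets. By library, the median was 26.2 and 28 FPKM in meristem, 21.4, 20.0 and 20.2 in internode 6-7, 19.2, 23.5 and 17.3 in internode 7-8, and 1.07, 1.02 and 1.04 in spikelets. Over the 29827 tested genes, those that reached 1 FPKM in 2 or more libraries, the library medians were 8.69 and 8.97 FPKM in meristem, 6.06 to 7.76 in the internodes and 5.14 to 6.26 in spikelets. In bulk tissue, fewer cells of a type and less RNA per cell cannot be told apart. All 200 members passed this filter on low values, through the vegetative libraries where the rule required them to be high.

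**Figure D1:**
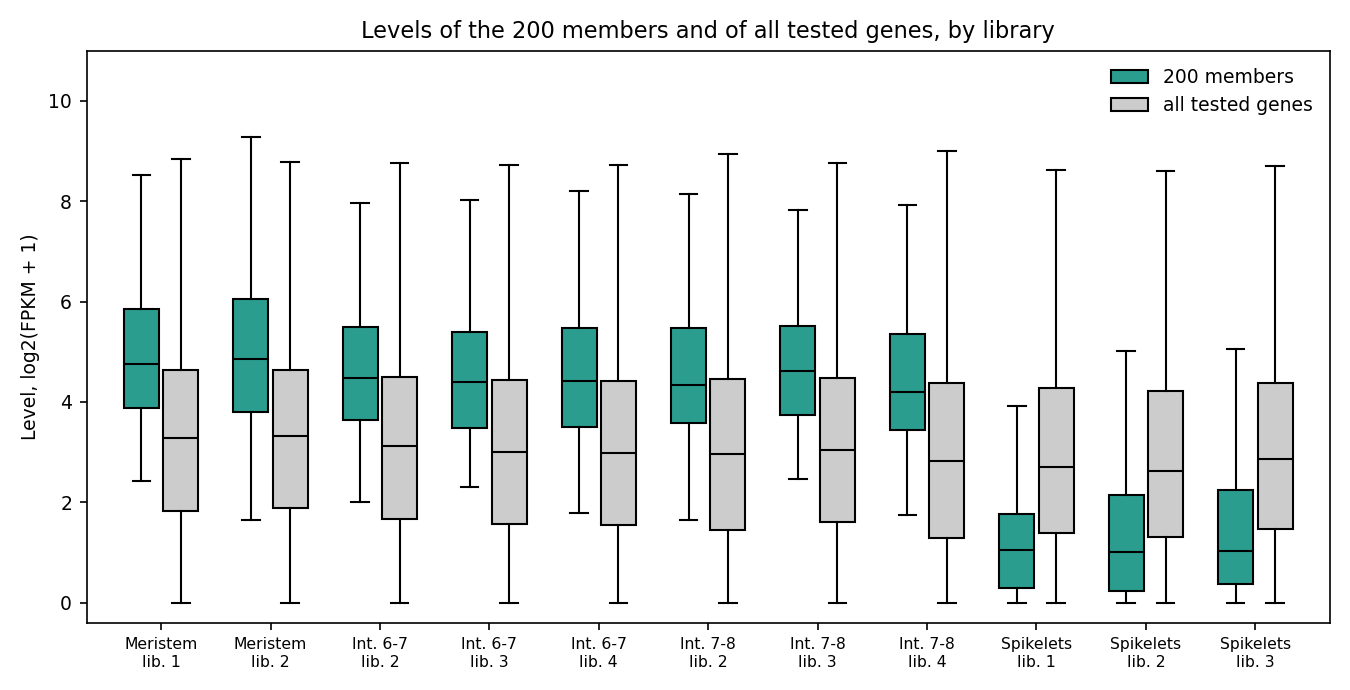
Levels as log2(FPKM + 1) of the 200 members (green) and of all 29827 tested genes (grey) in each library, with boxes from the first to the third quartile, a line at the median and whiskers to 1.5 times the box length. The member medians lie above those of the tested genes in all 8 vegetative libraries and below them in all 3 spikelet libraries. The rule chose members by the difference between these tissues, and it set no level against other genes.

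Not every member was off in spikelets, so the set is better read as genes lower there. The spikelet mean was under 1 FPKM for 87 members, among them 18 listed at 0 in all 3 spikelet libraries. It was 1 to under 5 FPKM for 77, 5 to under 20 for 22 and 20 FPKM or more for 14. The lowest vegetative mean was a median 10.5 times the spikelet mean over the 182 members with a spikelet level above 0, with a range of 1.07 to 174 times. These ratios are of FPKM means, while the scores understate the change of low genes, since 1 was added to each value before the logarithm.

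Every vegetative library lay above every spikelet library for 181 members, and for 21% of tested genes, a difference the rule itself selects. Among the 19 exceptions, 11 were listed at 0 in at least 1 vegetative library, and of the other 8 all but GRMZM2G126566 were listed at 0 in at least 1 spikelet library. An exact 0 in such a table can be a failed estimate rather than an absent transcript. None of these 11 matched a RefSeq gene. GRMZM5G882806, for one, had 2023 and 3507 FPKM in meristem, 539, 260.2 and 0 in internode 6-7, 731, 303 and 0 in internode 7-8 and 0, 0 and 357 in spikelets. Its libraries of each stem tissue include a 0, and its spikelet library 3 overlaps the internodes.

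Scores ran from 6.90 down to 2.19 with a median of 2.65. The median over the 26078 tested genes within the internode limit was -0.02, of which 2240 scored 1 or more and 267 scored 2 or more. There was no gap at the last place. Just inside were GRMZM5G867194, GRMZM2G115960 and TAZ1, all with a score of 2.19, and just outside were GRMZM2G037386, GRMZM2G076410 and GRMZM2G007028, all with a score of 2.18. The order is thus a continuum, and the last places would change hands with small changes of the values.

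**Figure D2:**
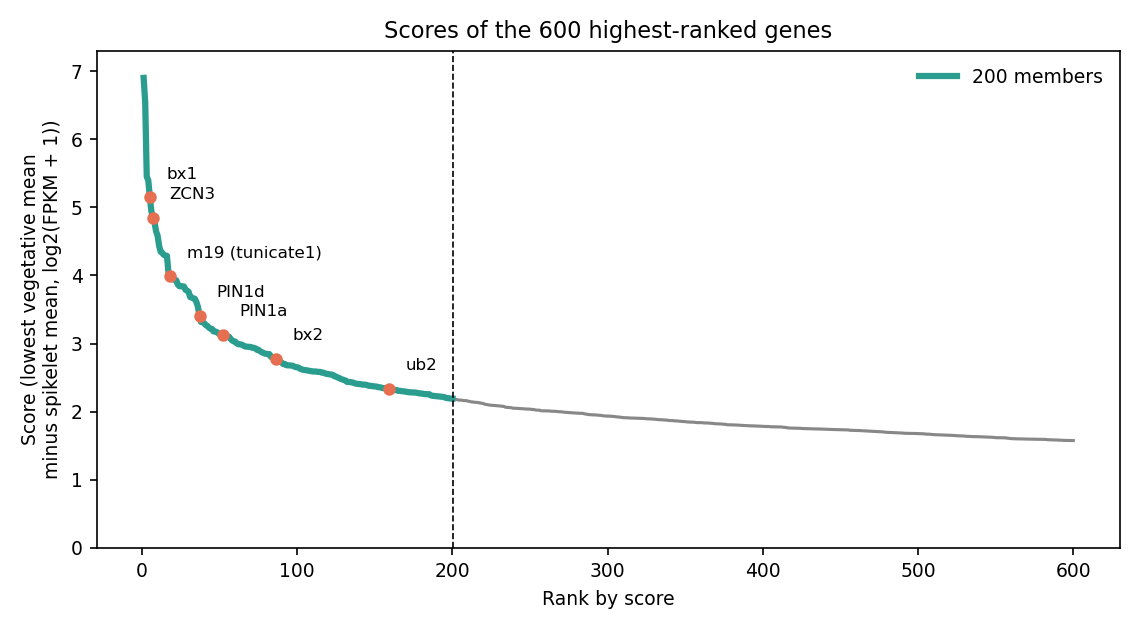
Score, in log2(FPKM + 1) units, of the 600 highest-ranked genes against their rank, with the 200 members in green, a dashed line at the last place and 7 named members as orange points. The curve falls steeply from 6.90 over the first ranks and passes the last place at 2.19 without a break.

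The highest score belonged to GRMZM5G808768, which has no name in the RefSeq table. It had 481 and 507 FPKM in meristem, 633, 476 and 543 in internode 6-7, 555, 467 and 1044 in internode 7-8 and 2.59, 3.91 and 3.02 in spikelets. All 8 vegetative libraries were thus above 460 FPKM and all spikelet libraries under 4 FPKM. GRMZM2G531195, second by score, had 188 and 67.2 FPKM in meristem, 43.3, 84.3 and 214 in internode 6-7 and 219, 50.7 and 116 in internode 7-8, and was listed at 0 in all 3 spikelet libraries. Its vegetative libraries vary within each tissue, and none of them reaches down to the spikelets. GRMZM5G804575 averaged 161 ± 15, 118 ± 13.7 and 158 ± 66.9 FPKM in meristem, internode 6-7 and internode 7-8, against 1.80 ± 0.842 FPKM in spikelets (SD over libraries, as throughout, n = 2, 3, 3 and 3). GRMZM5G830361 averaged 82 ± 0.542, 122 ± 17.6 and 140.1 ± 24.9 FPKM in the same vegetative tissues, against 1.10 ± 0.890 FPKM in spikelets. GRMZM2G077776, AC209819.3_FG005 and GRMZM5G858064 also stood in the first 10, and their spikelet means were 1.06, 1.08 and 2.1 FPKM. The first 10 also hold bx1, m20 and ZCN3, described with their families.

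Of the 200 members, 117 (58.5%) matched a RefSeq gene and 34 (17%) had a gene name, compared with 53.46% and 7.5% of the tested genes. By annotation, 2 of the matched members were long noncoding RNAs and the others were protein-coding. The named members fell into families of transcription factors, hormone genes and enzymes. Family lists were drawn up from gene symbols with earlier results of these data known, so their counts are descriptions.

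MADS-box genes split into 2 sharply different groups. Of 35 tested, 5 were members (m20, m19, MADS34, m26 and m21), while all other 30 had a score below 0 and 28 of them a score of -1 or less. m20 had 316 and 231 FPKM in meristem, 141, 166 and 135 in internode 6-7, 169, 167 and 154 in internode 7-8 and 5.68, 3.38 and 2.81 in spikelets. The 2 meristem libraries were the highest, and the 3 spikelet libraries were far below all others. m19, also called tunicate1, is the gene whose misexpression in the inflorescence gives pod corn, with leaf-like husks around each kernel. It had 245 and 223 FPKM in meristem, 173, 132 and 126 in internode 6-7, 183, 176 and 199.7 in internode 7-8 and 8.19, 7.53 and 8.28 in spikelets. The spikelet libraries were close to one another and did not reach the lowest internode library. MADS34 had 11.2 and 26.3 FPKM in meristem, 49.7, 57.3 and 48.2 in internode 6-7, 68.9, 62 and 60.8 in internode 7-8 and 1.04, 0.137 and 0.263 in spikelets. It differs from m20 and m19 in being lowest of the vegetative tissues in the meristem, with no overlap between its meristem and internode libraries. m26 averaged 132 ± 12, 87 ± 16.8 and 104 ± 16.4 FPKM in meristem, internode 6-7 and internode 7-8, against 8.16 ± 1.43 FPKM in spikelets. m21 averaged 76.6 ± 7.65, 33 ± 5.13 and 36.5 ± 7.01 FPKM in the vegetative tissues, against 3.69 ± 1.31 FPKM in spikelets. Among the MADS-box genes outside the set, MADS71 came nearest with a score of -0.23.

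**Figure D3:**
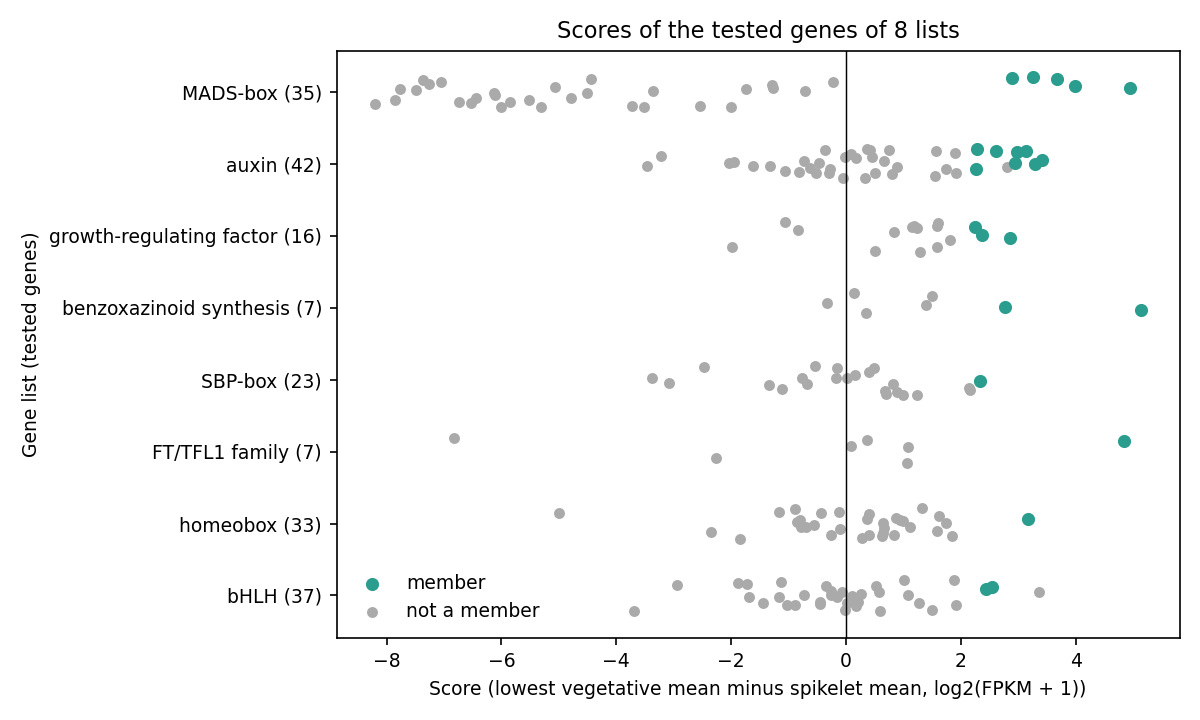
Score, in log2(FPKM + 1) units and without the limit on the internode difference, of each tested gene of 8 families, with members in green and other genes in grey and the number of tested genes in brackets. The 5 MADS-box members stand apart from the other 30, all below 0, whereas in the growth-regulating factors the 3 members continue a group that lies mostly above 0; grey points among or beyond green ones failed the internode limit.

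Genes that time flowering and set branching were among the members. ZCN3, of the TFL1-like side of the FT/TFL1 family, had 117 and 216 FPKM in meristem, 66.8, 72.9 and 47.3 in internode 6-7, 93.9, 90.8 and 89.4 in internode 7-8 and 2.37, 0.846 and 0.634 in spikelets. Both meristem libraries were above all internode libraries, and no spikelet library came near them. The other 6 tested genes of the family had much lower vegetative levels, with ZCN2 at 2.36, 1.44 and 2.50 FPKM in meristem, internode 6-7 and internode 7-8 against 0.163 FPKM in spikelets, and ZCN14 had the opposite pattern with 0, 0.267 and 0.238 FPKM in the same tissues against 117 FPKM in spikelets. DLF1, a bZIP factor that promotes flowering at the shoot tip, had 27.8 and 36.2 FPKM in meristem, 7.67, 4.87 and 6.50 in internode 6-7, 10.8, 6.44 and 9.99 in internode 7-8 and 0.349, 0.0857 and 0.191 in spikelets. It was highest in both meristem libraries and under 1 FPKM in all spikelet libraries. ub2, an SBP-box factor that acts in branching of the inflorescence, averaged 72.9 ± 29, 31.3 ± 4.12 and 37.1 ± 11 FPKM in meristem, internode 6-7 and internode 7-8, against 5.61 ± 2.06 FPKM in spikelets. Its relative ub3, with overlapping functions, was not a member, at 66.7, 49.5 and 61.3 FPKM against 27.4 FPKM in spikelets. ub2 was the only member among 23 tested SBP-box genes.

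Auxin genes gave 8 members of 42 tested, compared with 34 members among the 2237 tested genes with a name and 200 among all 29827. The list can hold only genes with a name, and named genes were more frequent among the members, so the named genes are the nearer background. Of the 34 auxin genes outside the set, 17 scored above 0 and 17 below, an even split. The efflux carrier gene PIN1d had 81.2 and 102 FPKM in meristem, 38.4, 25.2 and 35.7 in internode 6-7, 35.5, 35.1 and 49.2 in internode 7-8 and 1.10, 3.08 and 2.70 in spikelets. PIN1a, another carrier of the same subfamily, had 22.6 and 55.8 FPKM in meristem, 43, 37.7 and 46.3 in internode 6-7, 52.2, 38.7 and 42.7 in internode 7-8 and 1.71, 3.72 and 4.75 in spikelets. PIN1d was highest in both meristem libraries, whereas those of PIN1a lay on either side of all internode libraries, and neither gene overlapped with spikelets. The carrier gene PIN10a had the opposite pattern, at 0.386, 1.83 and 1.19 FPKM in meristem, internode 6-7 and internode 7-8 against 15.2 FPKM in spikelets. AUX1 averaged 16.1 ± 2.47, 23.1 ± 4.46 and 23 ± 7.49 FPKM in the vegetative tissues, against 0.733 ± 0.0767 FPKM in spikelets. IAA12, named as one of the Aux/IAA repressors, averaged 23.5 ± 0.920, 22.2 ± 3.97 and 27.4 ± 3.78 FPKM, against 1.93 ± 0.277 FPKM in spikelets. AUX17 had spikelet levels of 1.36, 2.41 and 2.27 FPKM, below its lowest vegetative library at 11.8 FPKM. The ARF symbol stands for auxin response factor but is also used for another protein family, and the RefSeq table carries no descriptions to tell them apart. ARF3 was the most abundant of the 3, at 254 ± 28.2, 197 ± 22.9 and 203 ± 45.1 FPKM in meristem, internode 6-7 and internode 7-8, and kept 41.2 ± 15.1 FPKM in spikelets. ARF23 averaged 28.5, 36.3 and 39.1 FPKM in the vegetative tissues and 4.08 FPKM in spikelets, and ARF11, added here after its values were seen to complete the list, averaged 12.8, 14.2 and 12.3 FPKM and 1.83 FPKM.

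Other hormone pathways gave single members. CCD8, a carotenoid cleavage enzyme of strigolactone synthesis, had 12.1 and 11.9 FPKM in meristem, 7.19, 6.09 and 6.15 in internode 6-7, 4.91, 5.48 and 5.41 in internode 7-8 and 0, 0.0742 and 0.334 in spikelets. Its meristem libraries were the highest and its spikelet libraries were all under 0.4 FPKM. HK1b2, a histidine kinase of the cytokinin receptor family, was the one member among 25 tested cytokinin genes, at 9.42 ± 1.56, 9.96 ± 3.88 and 12.5 ± 2.66 FPKM in meristem, internode 6-7 and internode 7-8 against 1.18 ± 0.462 FPKM in spikelets. No gibberellin or brassinosteroid gene was a member, of 5 and 3 tested, and these lists are too small to read an absence from.

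Growth-regulating factors, which promote cell proliferation in growing organs, gave 3 members of 16 tested. Both identifiers named GRF9 were among them, and whether their reads can be told apart was not examined. GRF9 under GRMZM5G893117 averaged 10.2 ± 6.82, 8.30 ± 0.88 and 7.38 ± 2.64 FPKM in meristem, internode 6-7 and internode 7-8, against 0.76 ± 0.526 FPKM in spikelets. GRF9 under GRMZM2G124566 had 15.4 and 31.7 FPKM in meristem, 11.4, 10.6 and 11.9 in internode 6-7, 8.65, 11.9 and 9.87 in internode 7-8 and 0.415, 0.469 and 0.718 in spikelets. GRF8 averaged 27.8 ± 3.12, 9.63 ± 3.71 and 12.7 ± 7.69 FPKM in the vegetative tissues, against 0.955 ± 0.193 FPKM in spikelets. All spikelet libraries of these 3 members were at or near 1 FPKM or lower, below every vegetative library of the same gene. Of the 13 others, 10 scored above 0 and 8 scored 1 or more, up to 1.81 for GRF13. Here the members are thus the upper end of a family that was mostly lower in spikelets, unlike the MADS-box genes.

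Further transcription factors were rld2, GRAS19, bHLH33 and bHLH145. rld2, a class III HD-ZIP homeobox gene of the group that sets the upper side of leaves, had 47.4 and 57.9 FPKM in meristem, 75.9, 56.2 and 57.1 in internode 6-7, 52.5, 53.2 and 54.3 in internode 7-8 and 3.62, 4.29 and 7.43 in spikelets. Its vegetative libraries stayed between 47.4 and 75.9 FPKM, and the spikelet libraries were all under 8 FPKM. Its relative rld1 was not a member, with a score of 1.12. GRAS19 averaged 31.9 ± 5.90, 15.8 ± 2.40 and 22 ± 6.04 FPKM in meristem, internode 6-7 and internode 7-8, against 1.78 ± 0.623 FPKM in spikelets. bHLH33 averaged 0.753 ± 0.254 FPKM and bHLH145 0.129 ± 0.112 FPKM in spikelets, and both were at 4 FPKM or more in every vegetative library. Another bHLH gene, bHLH114, scored 3.36 but was left out by the limit on the internode difference. No AP2/EREBP, MYB, WRKY, NAC, YABBY, TCP or DOF gene was a member, of 27, 45, 14, 21, 7, 7 and 4 tested. Members were only 34 of the 2237 tested genes with a name, so an absence from lists of these sizes says little.

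**Figure D4:**
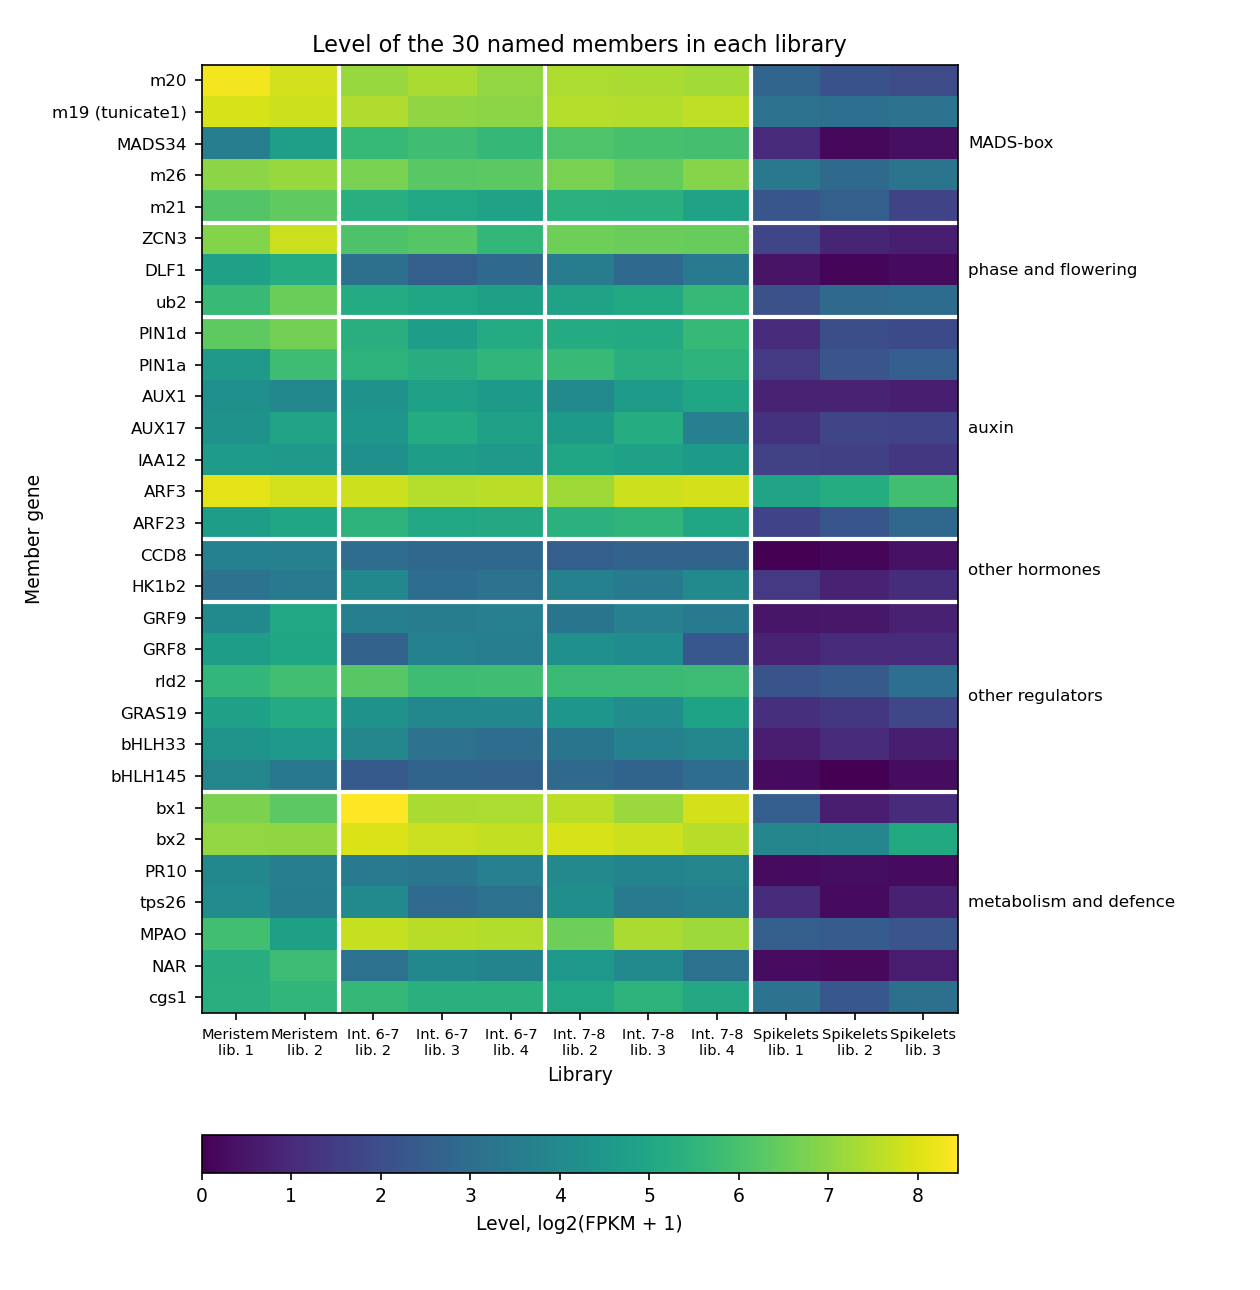
Level as log2(FPKM + 1) of 30 named members (rows, grouped by role) in each of the 11 libraries (columns), from dark (0) to yellow (highest). All 30 are darker in the 3 spikelet columns, m20 and PIN1d are brightest in the 2 meristem columns, and bx1 and MPAO are brightest in the internode columns.

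The first enzymes of benzoxazinoid synthesis were both members, and the later ones were not. bx1, which releases indole from its precursor, had 109 and 79 FPKM in meristem, 348, 164 and 167 in internode 6-7, 190.4, 144 and 241 in internode 7-8 and 4.81, 0.546 and 1.08 in spikelets. bx2, the first of the cytochrome P450 enzymes that oxidise this indole, had 134 and 132 FPKM in meristem, 250.4, 219 and 204 in internode 6-7, 242, 225 and 185 in internode 7-8 and 13.5, 14 and 34.1 in spikelets. Internode libraries were the highest for both, and all spikelet libraries were the lowest, at the most 4.81 FPKM for bx1 and 34.1 FPKM for bx2. Of the 7 bx genes tested, 6 scored above 0, and the median score of the 7 was 1.39. The next P450 genes scored 0.34 for bx3, 1.39 for bx4 and 0.14 for bx5, and bx3 averaged 554 FPKM in spikelets. bx4 averaged 61.6, 76.2 and 74.5 FPKM in meristem, internode 6-7 and internode 7-8, against 23.9 FPKM in spikelets. The glucosyltransferase genes scored 1.49 for bx9 and -0.32 for bx8. bx9 averaged 270.6, 149.4 and 194.7 FPKM in meristem, internode 6-7 and internode 7-8, against 52.7 FPKM in spikelets. bx1 and bx2 lie next to each other on chromosome 4, with no annotated gene between them in the RefSeq order. Of 114 members that could be placed, 1 other pair was adjacent, ARF23 and GRMZM2G427618 on chromosome 6.

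Other enzymes and defence genes completed the named members. PR10, a pathogenesis-related protein, had 14.4 and 11.1 FPKM in meristem, 10.3, 8.88 and 11.8 in internode 6-7, 14.8, 13.1 and 13.5 in internode 7-8 and 0.177, 0.256 and 0.192 in spikelets. NAR, a nitrate reductase, had 37.4 and 53.8 FPKM in meristem, 8.15, 14.5 and 13 in internode 6-7, 21.4, 15.5 and 7.80 in internode 7-8 and 0.217, 0.169 and 0.550 in spikelets. MPAO, a polyamine oxidase that yields hydrogen peroxide in the cell wall, had 58.2 and 27 FPKM in meristem, 206, 183 and 176 in internode 6-7, 94.7, 167 and 148 in internode 7-8 and 4.95, 4.45 and 3.70 in spikelets. PR10 was even across the vegetative libraries, NAR was highest in the meristem and MPAO highest in the internodes, with no overlap with spikelets in any of the 3. cgs1, which commits cysteine to methionine synthesis, averaged 42.3 ± 5.32, 42.8 ± 4.81 and 35.8 ± 6.08 FPKM in meristem, internode 6-7 and internode 7-8, and kept 6.6 ± 2.34 FPKM in spikelets. tps26 averaged 13.3 ± 3.59, 9.93 ± 4.49 and 13.3 ± 3.85 FPKM in the same tissues, against 0.661 ± 0.457 FPKM in spikelets. None of the tested genes for the cell cycle (19), lignin (10), cellulose synthases (13), aquaporins (18), light harvesting (16) or peroxidases (2) was a member. As with the transcription factor lists, an absence from lists of these sizes says little. Without the internode limit, 16 of the 19 cell cycle genes scored above 0 and 10 scored 1 or more, with a median of 1.06. In contrast, 16 of the 18 aquaporin genes and 15 of the 16 light-harvesting genes scored below 0.

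The vegetative tissues were compared with one another to see whether the members form 1 pattern within the shoot. The rule used these levels but did not fix the direction between meristem and internodes, so this difference was tested, by limma across all 29827 genes, as meristem minus the mean of both internodes. Genes were called at a Benjamini-Hochberg adjusted p under 0.05 and a log2 difference of at least 1. Of all tested genes, 14% were called higher and 5.61% lower in the meristem, 19.7% in either direction. Of the 200 members, 30 (15%) were called higher and 14 (7%) lower, and 156 were not called. Among tested genes that met the same internode limit, 11.8% were higher and 4.28% lower. The members' shares lay near the background, and no tilt of their own toward meristem or stem is read from them. Both meristem libraries lay above all 6 internode libraries for 29.5% of members and 32% of tested genes, and below them for 11.5% and 16.3%. The median log2 difference was 0.23 over the members and 0.16 over all tested genes. With median-of-ratios scaling these medians were 0.08 and 0.04, 20 members (10%) were called higher and 16 (8%) lower, and of the tested genes 11% were higher and 6.98% lower. The internodes were not tested against each other, because the rule limits their difference.

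Named members called higher in the meristem included regulators of phase and organ growth. DLF1 was higher by a log2 difference of 1.95 ± 0.23 (SE, limma adjusted p = 0.000216). NAR was higher by 1.75 ± 0.34 (limma adjusted p = 0.00282) and PIN1d by 1.32 ± 0.27 (limma adjusted p = 0.00374). m21, ZCN3 and ub2 were close to the limit of 1, at 1.13, 1.08 and 1.04, and all 3 fell under it with median-of-ratios scaling. GRF8 was higher by 1.40 ± 0.46 (limma adjusted p = 0.0371) and lost its call in several alternative fits. Without meristem library 2, ZCN3, ub2, PIN1d, m21 and GRF8 were not called, with limma adjusted p of 0.245, 0.267, 0.0558, 0.054 and 0.19. ZCN3 and ub2 also fell under the limit of 1 without internode 6-7 library 4, and ub2 without internode 7-8 library 2, at 0.96. PIN1a, with a log2 difference of -0.27, was not called. m20, m19, GRAS19, CCD8, bHLH145, bHLH33 and GRF9 under GRMZM2G124566 had a limma adjusted p under 0.05 but were not called. Their differences were 0.80, 0.52, 0.75, 0.92, 0.90, 0.94 and 0.99, under the limit of 1. GRF9 under GRMZM5G893117 was not called either, at 0.22 (limma adjusted p = 0.672), and its meristem and internode libraries overlapped.

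Named members called lower in the meristem were MPAO and MADS34. MPAO was lower by a log2 difference of -1.97 ± 0.28 (SE, limma adjusted p = 0.000543), and MADS34 by -1.67 ± 0.29 (limma adjusted p = 0.00171). For bx1 the log2 difference was -1.09 ± 0.46, not called in the fit of all tissues (limma adjusted p = 0.0861), and called when spikelets were left out of the fit (limma adjusted p = 0.0246) or when spikelet library 1 was (limma adjusted p = 0.0221). bx2 was not called either, at -0.72 ± 0.29 (limma adjusted p = 0.0773).

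Unnamed members showed the widest differences. GRMZM2G402417 had 177 and 113 FPKM in meristem, 1093, 1157 and 1117 in internode 6-7, 901, 999.7 and 849.6 in internode 7-8 and 16.8, 31.2 and 18.2 in spikelets. It was an abundant stem transcript with a lower level in the meristem, a log2 difference of -2.83 ± 0.23 (limma adjusted p = 2.36e-05). GRMZM5G801969 and GRMZM2G014844 were also lower, at -1.68 and -1.62. In the other direction, GRMZM2G039443 had 268 and 186 FPKM in meristem, 56.7, 35.4 and 14 in internode 6-7, 24.4, 31.1 and 17.3 in internode 7-8 and 0.473, 0.205 and 1.38 in spikelets, a log2 difference of 3.01 ± 0.44 (limma adjusted p = 0.000693). The long noncoding RNA GRMZM2G374085 was higher by 2.60 ± 0.33 (limma adjusted p = 0.000323) and GRMZM5G856366 by 2.54 ± 0.62 (limma adjusted p = 0.00965). The largest called difference, 5.97 for GRMZM2G564674, rests on a gene listed at 0 in 4 of 6 internode libraries, and it lost its call in most alternative fits. GRMZM5G818194, at 3.29, was also listed at 0 in 1 internode library. Several of these calls were lost when 1 of the 2 meristem libraries was left out. Without meristem library 1, the limma adjusted p was 0.145 for GRMZM5G856366, 0.124 for GRMZM2G014844 and 0.0774 for GRMZM5G818194. Without meristem library 2, it was 0.132 for GRMZM5G801969, 0.0937 for GRMZM2G014844 and 0.0624 for GRMZM5G818194. Without the 11 members listed at 0 in a vegetative library, 28 of 189 were called higher and 14 lower.

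**Figure D5:**
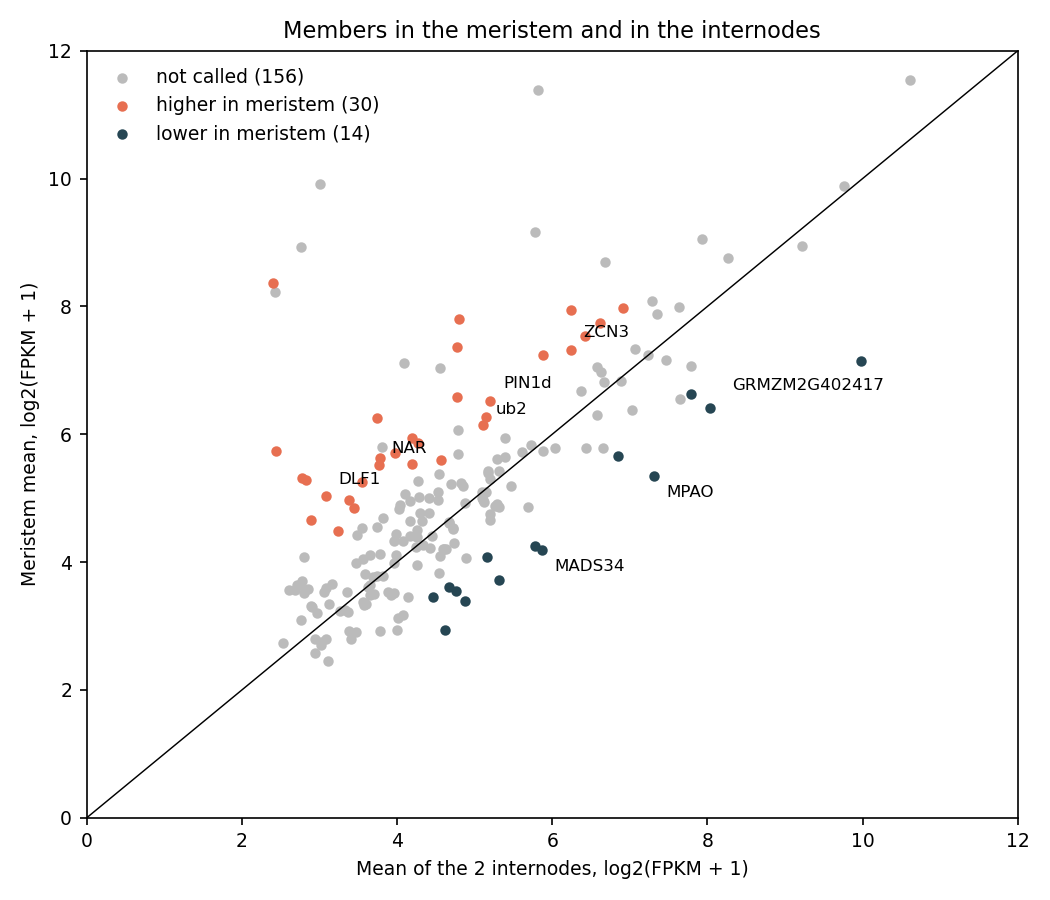
Mean level in the meristem against the mean of both internodes, both as log2(FPKM + 1), for the 200 members, with the line of equal levels. The 30 members called higher in the meristem (orange) and the 14 called lower (dark) lie on either side of 156 members not called (grey).

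Spikelet libraries were left out in turn to see how far the low spikelet levels rest on the libraries that chose the genes. When the 200 genes were chosen without a spikelet library, their median in that library was 1.15 FPKM for library 1, 1.29 for library 2 and 2.20 for library 3, compared with 1.07, 1.02 and 1.04 FPKM for the 200 members. Over all tested genes, the medians in spikelet libraries 1, 2 and 3 were 5.56, 5.14 and 6.26 FPKM. The left-out library was thus also low, with library 3 the highest. It comes from the same tissue as the libraries that still chose the genes and may be a technical replicate. These medians are therefore a description and no independent support. Between 172 and 180 of the 200 members were chosen again in these 3 runs.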

How the data were processed

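RNA-seq of 11 libraries from 4 B73 tissues was used. The libraries held polyA-selected RNA and marked strand with dUTP, per the labels' protocols. Cufflinks 2.1.1, TopHat2 2.0.8b and Bowtie2 2.1.0 are named in the submitters' processing notes. The authors deposited FPKM values per gene. Build, annotation and strand setting were not given in the sources used here, and reads of overlapping or antisense genes may not have been separated. Internode libraries are numbered 2 to 4 as in their column names, unlike the sample titles. The other 57 value columns matched no label and were not used, and 6 rows with a missing value were left out. Paired numbers are treated in the closing section.

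The members and the gene lists were chosen with earlier results of these data known. A gene was tested where 2 or more libraries reached 1 FPKM. On the scale of log2(FPKM + 1), limma 3.58.1 (R 4.3.3) fitted tissue means to the 11 libraries jointly, with a trended prior variance. Tests were two-sided, and p-values were adjusted by Benjamini-Hochberg over 29827 genes. The procedure was tested on simulated data. Named genes were the 10 highest scores, the 30 highest-scoring members with a gene name, 3 genes on each side of the last place, and the 5 highest and 5 lowest called meristem differences without overlap. RefSeq (Zm-B73-REFERENCE-NAM-5.0) supplied names and gene order through its synonyms. Promoter and protein sequences were not analysed here. Alternatives were another pseudocount, scaling, filter, fit and internode limit, and leaving out each library.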

Additional observations from a re-analysis of the deposited data

How the results depend on the processing

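The counts of called genes held within 1.5 times in every alternative that kept all libraries and had no replicate block, with 5354 to 6855 genes called (5863 in the reported fit) and 36 to 46 members (44). Leaving out 1 library at a time gave 4076 to 6167 genes, 32 to 50 members, 21 to 35 members higher in the meristem, 9 to 15 lower (14) and 12 to 21 of the named members called (20). The low ends of 9 and 12 came without meristem library 2. Membership moved more. With a pseudocount of 0.1, 123 of the 200 were chosen again, and with an internode limit of 0.3, 113. It was 134 with no internode limit, 186 with scaling, 166 with the vegetative mean in place of the lowest, 167 with exact 0 as missing, and 149 to 187 without 1 library. ZCN3 left the set with scaling, with the limit of 0.3, and without internode 6-7 library 2 or 3. Of the 30 highest-scoring named members, 20 stayed with the pseudocount of 0.1 and 19 with the limit of 0.3. The pseudocount dropped MPAO, m21, bx2, GRAS19, ARF23, GRF8, ub2, cgs1, ARF3 and HK1b2. The limit dropped m19, MADS34, PR10, IAA12, AUX17, MPAO, tps26, GRAS19, DLF1 and HK1b2 besides ZCN3. HK1b2 also left in several other alternatives, among them the vegetative mean and no internode limit. The requirement of a level above 0 in every vegetative library, added after the data were seen, kept 189. The median spikelet level was 1.43 FPKM with scaling (1.22 without) and 1.07 to 1.26 without 1 spikelet library.

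Signs of meristem differences that were not called turned round as follows, with the cause not tested. With scaling, PR10 was at -0.063 and cgs1 at -0.046. Without 1 library at a time, the log2 difference ranged from -0.57 to 0.90 for GRMZM2G531195, -0.086 to 0.26 for PR10, -0.28 to 0.0039 for rld2, -0.91 to 0.36 for PIN1a, -0.33 to 0.26 for AUX17, -0.031 to 0.49 for tps26 and -0.014 to 0.24 for cgs1. Over all alternatives, the replicate block included, 734 single-gene values kept sign and side of the threshold, 49 lost a call and 16 gained one.

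A replicate block by column number, added after the data were seen, gave 4484 genes called, 34 members, 23 higher and 11 lower in the meristem, and 15 of the named members. Under the block the log2 difference of uncalled genes turned to 0.087 for rld2, 0.24 for PIN1a, 0.17 for AUX17 and -0.26 for tps26. The labels tie no number to a shared source, and meristem and internode columns share only number 2. Deviations of same-numbered internode libraries from their tissue means correlated over genes at -0.12, 0.202 and -0.114. Internode pairs with unlike numbers ranged from -0.207 to 0.256. Deviations within a tissue cancel one another, so these few correlations cannot decide whether same-numbered libraries share a source.

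With 2 meristem libraries, no spread within that tissue can be judged by itself, and a lone library was assumed to vary like the other tissues. Spikelet libraries 1 and 2 were the shallowest of all, which limits how low a level can be told from 0.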

Other observations

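Among the 200 members, 38 were listed at 0 in 1 or 2 of the 3 spikelet libraries, and 11 were at 0 in a spikelet library while another held 10 FPKM or more. GRMZM2G535984 had 542 and 523 FPKM in meristem, 339, 324 and 180.1 in internode 6-7, 159, 321 and 199.8 in internode 7-8 and 0, 405 and 229 in spikelets. GRMZM5G820064 had 108 FPKM in spikelet library 3 and was listed at 0 in the other two. Their spikelet means of 211 and 36.1 FPKM are among the 14 at 20 FPKM or more. The members were highest in spikelet library 1 for 65 genes, in library 2 for 47 and in library 3 for 70.

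Further named genes, chosen after their values were seen, were aos2, an allene oxide synthase of jasmonate synthesis, at 114, 109 and 138 FPKM in meristem, internode 6-7 and internode 7-8 against 23.1 FPKM in spikelets, and the SBP-box genes sbp27 and sbp23, which missed the last place at scores of 2.15 and 2.14.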
